A study of Drosophila melanogaster with 4 samples.

Results

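The cells described here were the neurons and glia of 1-day-old adult eyes, compared between males and females. They were chosen by transcript counts: a barcode needed over 200 genes, under 20% of its unique molecular identifiers (UMIs, each standing for 1 captured transcript) from mitochondrial genes, under 2% from ninaE, the rhodopsin of the outer photoreceptors, and under 2% from Pdh, a retinal pigment cell gene. A neuron had at least 2 UMIs of fne, a neuronal RNA-binding protein, and none of repo, the transcription factor that marks glia. A glial cell had at least 1 UMI of repo and none of fne. The rule found 2380 cells, 2065 neurons and 315 glia, of 25040 barcodes in the 1-day libraries and 40076 in all 4 libraries.

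All libraries came from compound eyes of the wild-type strain Canton-S, raised at one temperature and carrying no transgene. There was 1 library of 1-day males, 1 of 1-day females, 1 of 3-day males and 1 of 7-day males, each made from the pooled eyes of several animals. Eyes were dissected into actinomycin D, which blocks transcription, and were dissociated with collagenase before 10x Genomics droplet capture of transcript 3' ends. With 1 library per sex and age, sex cannot be told apart from whatever else set 2 libraries apart, no test between the sexes was possible, and no 3- or 7-day females entered the comparison. The intervals given here are exact 95% intervals that cover counting error only.

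In Drosophila, sex is set by the number of X chromosomes through Sxl, tra and the sex-specific splicing of dsx and fru, and the single X of males is transcribed at a raised rate by a complex of Msl proteins, Mle and roX RNAs. The neurons that come off with a dissected eye are expected to be largely those of the lamina, which receive histamine from the photoreceptors. Glia there recycle transmitter and form a barrier: Ebony joins histamine to beta-alanine, which the enzyme Black makes and the transporter Balat carries.

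The neurons numbered 1432 in the 1-day males and 633 in the 1-day females, with 540 and 471 in the 3- and 7-day males. The glia numbered 158 in the 1-day males and 157 in the 1-day females, with 84 and 87 in the older males. Neurons made up 10.3% of the cells within the limits on genes and mitochondrial UMIs in the 1-day males (interval 9.82 to 10.8) and 9.26% in the females (8.58 to 9.97). Glia made up 1.14% in the males (0.969 to 1.33) and 2.30% in the females (1.96 to 2.68), with 1.06% and 1.45% in the older males. The other cells also differed, since those with Pdh at 2% or more were 29.2% of the male and 13.9% of the female cells. In a further count, cells with under 2000 UMIs were left out and fne and repo were counted after the rest had been thinned to 2000 UMIs. Glia were then 0.784% of the male and 1.04% of the female cells kept, which is another set of cells than that of the shares above.

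The female cells were sequenced more deeply. The median neuron had 4662 UMIs in the 1-day males, 4324 in the 3-day males, 3585 in the 7-day males and 7963 in the females, and the median glial cell had 8698, 7336, 5077 and 14199 UMIs. Summed, the neurons held 9438960, 3276291, 1977778 and 6065426 UMIs and the glia 1471251, 683104, 491445 and 2295104. Of the cells near the limits, 192 male and 25 female neurons had exactly 2 UMIs of fne, 181 male and 31 female cells fell just short with 1, and 75 of the male and 62 of the female glia rested on a single repo UMI. Another 67 male and 47 female cells had both genes and were left out. Doublets were not called in the values given here. The 4 libraries shared 12 to 37 barcodes in pairs, of which 1, between the 1- and 7-day males, was in a neuron or glial cell of both.

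Most markers that the rule did not use followed the labels. nSyb, a synaptic vesicle protein, was at 2837, 1929, 1956 and 2690 CPM (counts scaled to a fixed total of 1000000 UMIs for the class) in the neurons of the 1-, 3- and 7-day males and the females, and at 30.5 to 38.1 CPM in male and 8.71 CPM in female glia. In glia, moody, a barrier receptor, was at 323, 173, 104 and 222 CPM, against 0.824 to 3.28 CPM in neurons. The glutamate transporter Eaat1, listed as a glial marker, did not separate the classes: it was at 283, 56.2, 72.8 and 249 CPM in neurons and 218, 138, 83.4 and 194 CPM in glia, higher in the neurons in both 1-day libraries. Lamina markers were detected in the neurons, among them the histamine receptor ort at 485 CPM in the 1-day males and 317 CPM in the females. The astrocyte gene alrm was at 22.4 CPM in the 1-day and 164 CPM in the 3-day male glia and had no UMI in the 7-day male or the female glia. Genes listed as retinal markers were present in both classes: the summed pigment cell markers of the neurons were 2264, 1029, 721 and 562 CPM, lowest in the females. Those of the glia were 15458, 11120, 8935 and 12177 CPM, above the summed general glial markers of the same cells (6864, 5917, 5697 and 7046 CPM) in every library. Of the 6 pigment markers, 1 or 2 were at 0 in each. Pdh itself was 0.186%, 0.0811%, 0.109% and 0.0809% of the glial UMIs, so most of each glial sum came from the other markers listed. Whether the glia make those RNAs themselves was not tested, so the sums are not a measure of retinal RNA in glia. The part of retinal RNA in the results was not tested, and the levels of a gene in cells rich in ninaE or Pdh are given beside it where they matter.

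A gene was compared when it had at least 100 UMIs over both 1-day libraries of the class, and it was past 2-fold when its CPM differed by 2-fold or more. In summed cells, fewer cells of a type and less RNA per cell cannot be told apart. Of 5867 genes compared in neurons, 64 were 2-fold or more higher in the females, which is 1.09%, and 332 were lower, which is 5.66%. Of 3010 genes compared in glia, 78 were higher (2.59%) and 167 lower (5.55%). The median over all genes lay at a log2 ratio of females over males of -0.035 in neurons and -0.080 in glia. The split depended on the scaling: with the TMM factors of edgeR, which moved the medians to 0.069 and 0.088, neurons had 93 genes higher and 255 lower and glia 123 higher and 115 lower.

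The older males showed how far libraries of 1 sex differed when age differed as well. The 1-day females and males shared an age, so the spread between male libraries of 1 age is not known here. Against the same 1-day males, 17% of 5758 neuronal genes were past 2-fold in the 3-day males and 14.1% of 5553 in the 7-day males. In glia the shares were 9.53% of 2162 genes and 13.1% of 2043. All of these comparisons share the 1-day male library. With the neurons of every library thinned to 1977778 UMIs, 5.71% of genes were past 2-fold in the females, 17.3% in the 3-day males and 11.9% in the 7-day males, and with the glia at 491445 UMIs 8.09%, 10.6% and 14.6%. Thus the neurons of the females differed from those of the 1-day males at fewer genes than the neurons of either older male library did.

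A gene was said to hold for the sex when its female CPM was 2-fold or more from that of each of the 3 male libraries in 1 direction, with 3 UMIs standing in for a lower library with fewer. In neurons 8 genes held as higher in females (0.136% of those compared) and 33 as lower (0.562%). In glia 30 held as higher (0.997%) and 55 as lower (1.83%). Of the 33 lower in neurons, 15 were X-linked (45.5%), while 17.5% of the genes compared lay on the X, and 4 of the 8 higher were X-linked too. In glia, 12 of the 55 lower (21.8%) and 7 of the 30 higher (23.3%) were X-linked, where 17.5% of the genes compared were.

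**Figure D1:**
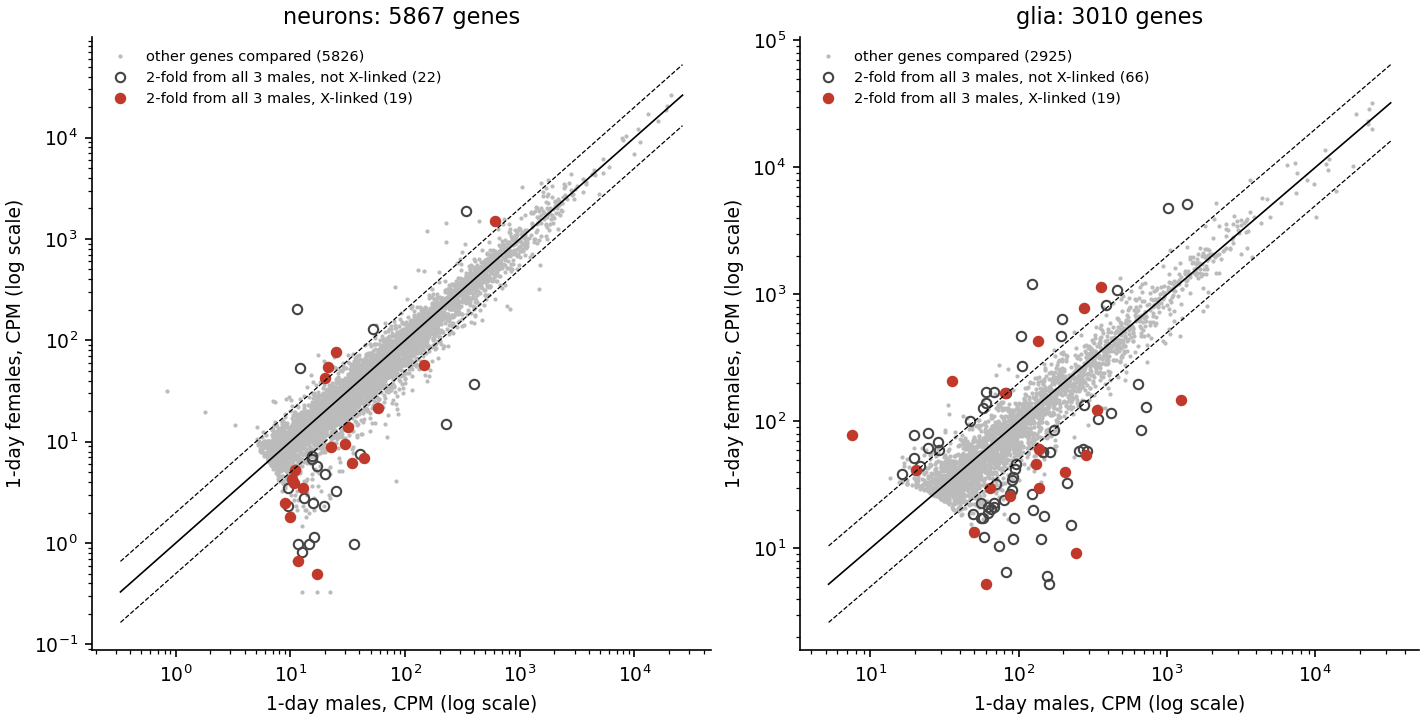
CPM of each gene compared in the 1-day males (horizontal) and 1-day females (vertical), both on log scales, for neurons and glia. The solid line marks equal levels and the dashed lines 2-fold; a gene without a UMI in 1 library is drawn at the lowest level found in it. Filled red points are the 19 X-linked genes of each class that were 2-fold from all 3 male libraries, and open points the 22 other such genes of neurons and 66 of glia.

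CG6999 was above the female level in every male library in both classes; it is an X-linked gene at 9088367 to 9089314 on the plus strand of the BDGP6 annotation of Ensembl release 115. In neurons CG6999 was at 43.8 CPM in the 1-day males, 105 in the 3-day males, 49.6 in the 7-day males and 6.92 in the females. Each male library was above the female library, and the 1-day males exceeded it 6.32-fold (4.59 to 8.9), the 3-day males 15.1-fold and the 7-day males 7.16-fold. In glia, CG6999 had 11, 14 and 13 UMIs in the 3 male libraries and none in the females, which made the male levels at least 5.72-fold, 15.7-fold and 20.2-fold higher, with 3 UMIs standing in for the female count, but left CG6999 short of the 100 UMIs for the glial comparison. The study itself named CG6999 as a sex-specific gene from these libraries, so these values are not independent of that choice.

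CG32706 lies directly before CG6999 on the same strand, 293 bases away, and its summed level was also above the female level in every male library. Its neuronal levels were 29.9, 99.8 and 47.0 CPM in the 1-, 3- and 7-day males and 9.40 CPM in the females, so that the males were 3.18-fold (2.38 to 4.30), 10.6-fold and 5.00-fold higher. In glia the males were at 15.6, 23.4 and 34.6 CPM and the females at 0.871 CPM, from 2 UMIs. Thinned to 500 UMIs a cell, CG32706 was found in 1.264% of female neurons and 1.257%, 3.333% and 2.335% of male neurons. At that depth the female share was thus not below that of the 1-day males. The files do not show how reads were divided between these neighbours.

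Both genes were male in the retinal cells as well, and further from the female level there. In cells with ninaE at 2% or more, CG6999 was at 58.6, 114.9 and 99.6 CPM in the males and 0.297 CPM in the females, a 197-fold difference at 1 day, and CG32706 was at 44.8, 85.2 and 75.5 CPM against 0.337 CPM. In cells with Pdh at 2% or more, CG6999 was at 21.9, 26.8 and 32.2 CPM against 0.558 CPM, from 2 UMIs. The neurons were thus the class in which the females had the highest level of CG6999. There, 35 of the 633 female neurons (5.53%) carried a CG6999 UMI, against 23.0%, 31.7% and 17.8% of the male neurons. Thinned to 500 UMIs a cell, the shares were 0% in the females and 1.89%, 2.78% and 1.91% in the males. Among female glia, 0 of 157 cells had one.

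**Figure D2:**
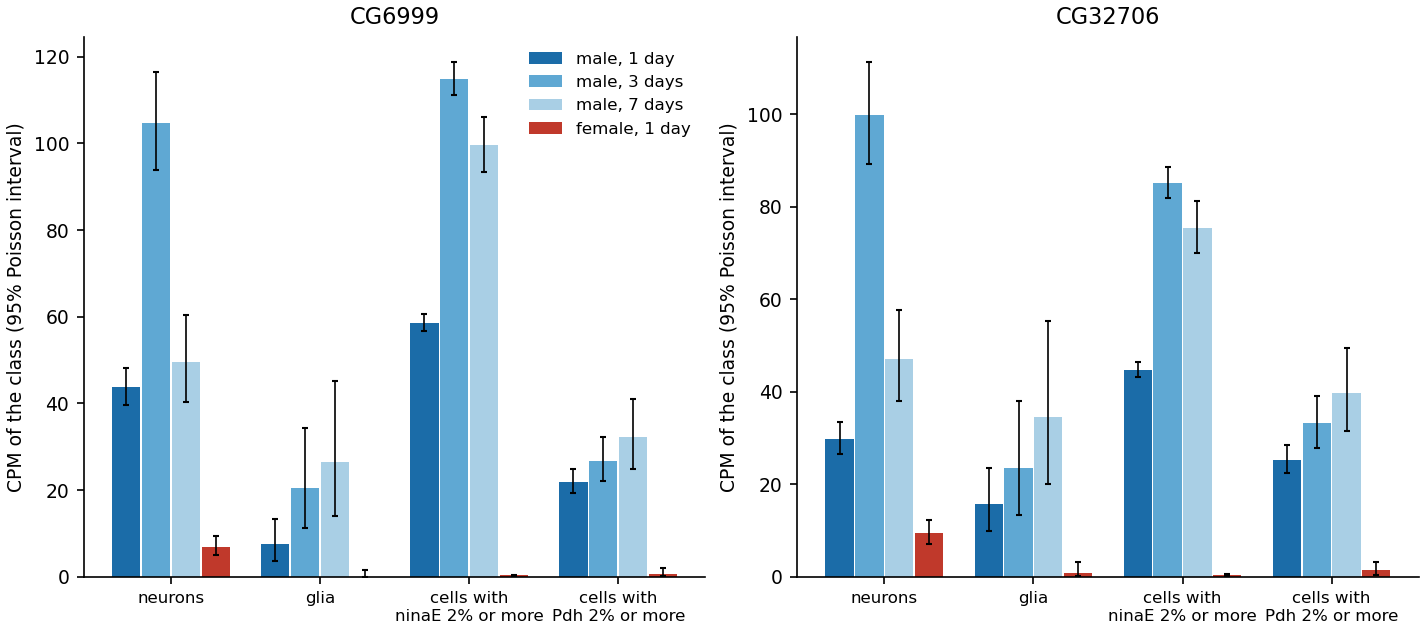
CPM of CG6999 and CG32706 (vertical, from 0) in neurons, glia, cells with ninaE at 2% or more and cells with Pdh at 2% or more, with a bar for each library and exact 95% Poisson intervals of the UMI counts. The male bars stand above the female bar in all 4 classes; the female neurons, at 6.92 and 9.40 CPM, are above the other female bars.

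Another 13 X-linked genes held as lower in female neurons, among them Cbs, Ahcy and Mgstl. Cbs, cystathionine beta-synthase, was at 10.7, 14.3 and 12.6 CPM in the 1-, 3- and 7-day males and 3.96 CPM in the females. Ahcy, which hydrolyses S-adenosylhomocysteine, was at 10.3, 14.7 and 17.7 CPM against 4.29 CPM. Mgstl, a microsomal glutathione transferase that lies 1030 bases from Cbs, was at 11.02, 20.1 and 24.8 CPM against 5.28 CPM. In these 3 genes the female library lay below all males, by 2.09-fold to 2.70-fold at 1 day. None was highest in neurons in the 1-day males: Ahcy and Cbs were highest in Pdh cells, at 92.5 and 42.0 CPM, and Mgstl in glia, at 335 CPM, while the pigment markers of the neurons were also lower in the females, at 562 against 2264 CPM; their part in these differences was not tested. Mgstl no longer held in neurons with TMM or DESeq2 factors, with ninaE and Pdh under 5%, with the study's limits, without scored doublets, without cells with Rh3 to Rh6, or without the 1% of cells richest in it.

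XRCC1, a DNA repair scaffold, was at 12.8, 14.4 and 13.7 CPM in the 3 male libraries and 3.46 CPM in the females, with the males close together. Cyp4d2, a cytochrome P450, was at 57.9, 46.7 and 66.7 CPM against 21.3 CPM, and it is 1 of the 3 X-linked genes of the list that were highest in neurons among the 4 classes in 1-day males. The largest ratios among the X-linked genes were those of CG13003 (17.1, 9.46 and 3.03 CPM against 0.495 CPM, from 3 UMIs) and CG11158 (11.6, 14.0 and 16.7 CPM against 0.659 CPM, from 4 UMIs). CG11158, like XRCC1, was highest in neurons, whereas CG13003 was at 3159 CPM in glia of the same 1-day male library. CG13003 did not hold with free RNA subtracted at 5% or without the 1% of cells richest in it. CG9689 and CG9691, which neighbour each other at 771 bases, were also glial genes, at 10043 and 22889 CPM in 1-day male glia.

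CG9691 was at 146, 203 and 215 CPM in the male neurons and 56.9 CPM in the female neurons, and 60.9% of its UMIs in the 1-day male neurons were in 10 cells. CG9689 was at 34.6, 28.4 and 64.2 CPM in male neurons and 6.10 CPM in female neurons, and its log2 ratio of -2.51 became -0.42 without the 1% of cells richest in it. mthl1, a receptor of the methuselah family, CG17333, CG2681 and CG12655 completed the X-linked genes, with male to female ratios at 1 day of 5.49, 3.64, 2.55 and 2.32. In neurons with only cholinergic markers, 6 of the 31 genes that held as lower were X-linked, and CG32706 had a log2 ratio of -0.99.

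**Figure D3:**
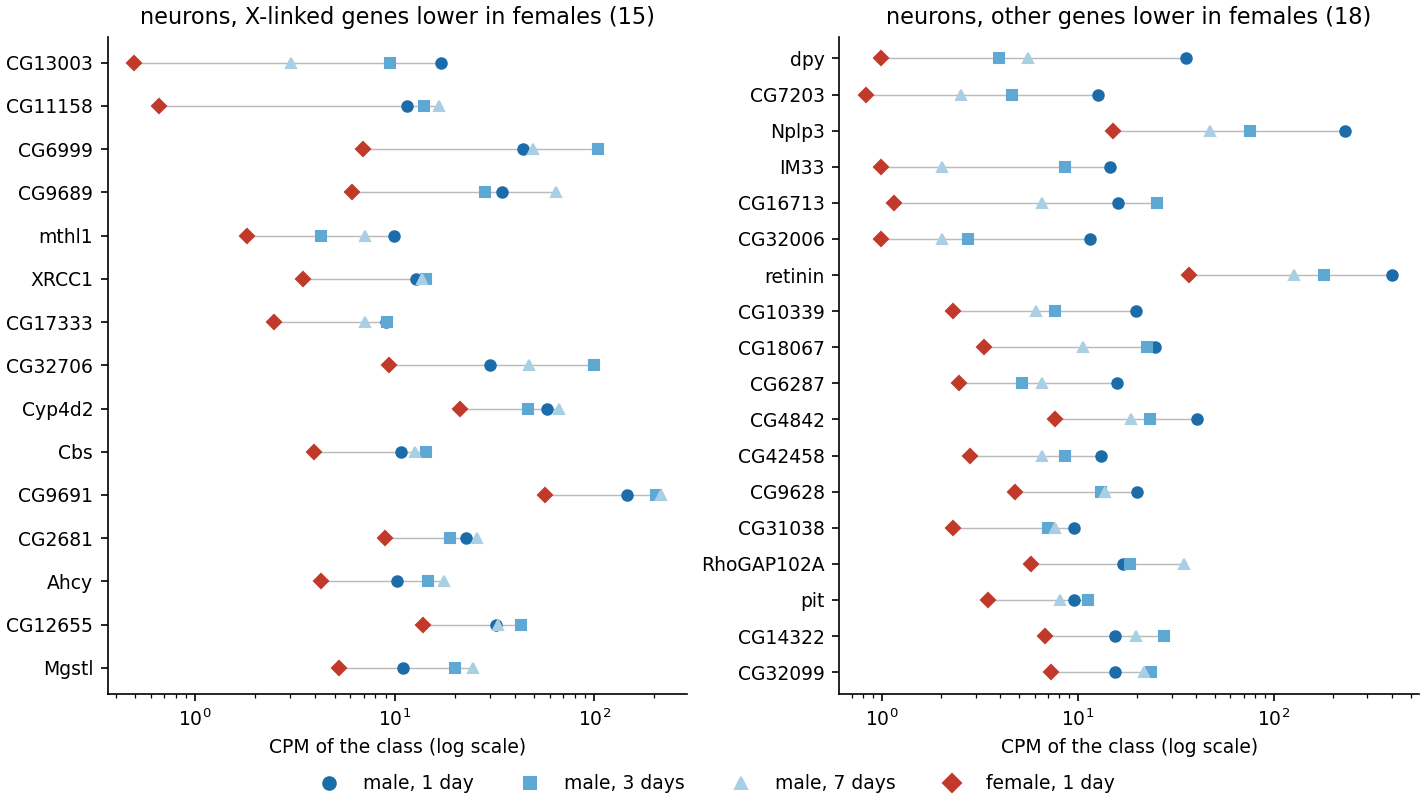
CPM in neurons (horizontal, log scale) of the 15 X-linked and 18 other genes that were 2-fold lower in females than in all 3 male libraries, with 1 symbol per library. The red female diamond lies to the left of the 3 male symbols in every line, and the males spread most for dpy, IM33, CG32006, CG13003 and CG7203.

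Of the 18 genes on other chromosomes, several are known or appeared here as genes of the retina's supporting cells. retinin, a component of the corneal lens, was at 403 CPM in the neurons of the 1-day males, 180 in the 3-day males, 126 in the 7-day males and 36.8 in the females, 10.96-fold lower than at the same age (9.57 to 12.6). In 1-day male cells rich in Pdh, retinin stood at 14601 CPM. Nplp3, a neuropeptide-like precursor, was at 230, 75.1 and 47.0 CPM in the male neurons and 15.0 CPM in the female ones, and at 7513 CPM in the Pdh cells of the 1-day males. Both were highest in the youngest males and lower in each older library, with the females lowest. Neither retinin nor Nplp3 held with free RNA subtracted at 5%.

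The summed pigment cell markers of the neurons were also lower in the females than in the 1-day males. The summed photoreceptor markers were at 6639, 4716 and 6667 CPM in the male neurons and 6124 CPM in the female ones. Their part in the levels of these genes was not tested. Pdh itself, which the rule limited, was at 1458, 595, 497 and 323 CPM in the neurons, and fabp, a fatty acid binding protein of pigment cells, at 772, 415, 211 and 216 CPM. retinin had a UMI in 71.8% of 1-day male neurons and 11.2% of female neurons, and in 18.6% and 2.21% when cells were thinned to 500 UMIs. Of all 33 genes lower in female neurons, 14 were highest in Pdh cells in 1-day males, 10 in neurons, 5 in glia and 4 in ninaE cells, and 12 were at least 10-fold higher in another class than in neurons. dpy, an apical extracellular matrix protein, was at 35.6, 3.97 and 5.56 CPM in male neurons and 0.989 CPM in female neurons, and at 151 CPM in the 1-day male Pdh cells.

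Others were highest in neurons among the 4 classes in 1-day males. RhoGAP102A, a gene of chromosome 4, was at 16.9, 18.3 and 34.9 CPM in the male neurons and 5.77 CPM in the females, and at 0.593 and 1.07 CPM in the ninaE and Pdh cells of the 1-day males. CG10339 was at 19.8, 7.63 and 6.07 CPM against 2.31 CPM, and pit, a DEAD-box helicase, at 9.54, 11.3 and 8.09 CPM against 3.46 CPM. RhoGAP102A, CG10339 and pit were 2.94-fold, 8.58-fold and 2.75-fold lower in the females than in the males of the same age. CG10339 did not hold with over 500 genes, with fne at least 3, without scored doublets or without the 1% of cells richest in it. Unlike RhoGAP102A, CG10339 and pit, IM33, an immune-induced gene, and its neighbour CG16713 were highest in Pdh cells, at 80.3 and 66.8 CPM. In neurons they were at 14.6 and 16.0 CPM in the 1-day males and 0.989 and 1.15 CPM in the females, on 6 and 7 female UMIs, and IM33 did not hold with TMM or DESeq2 factors, with a total without mitochondrial genes, with ninaE and Pdh under 5%, without scored doublets or without the 1% of cells richest in it. CG16713 did not hold under the last 2 of these.

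Among the 8 genes that held as higher in female neurons, Mct1, a monocarboxylate transporter, had very few UMIs outside the neurons. It was at 21.1, 17.4 and 25.8 CPM in the 1-, 3- and 7-day males and 54.6 CPM in the females, 2.59-fold higher at 1 day (2.17 to 3.10). It was at 0.529 CPM in the ninaE cells and 0.80 CPM in the Pdh cells of the 1-day males, and had no UMI in the glia of either 1-day library. A UMI of Mct1 was found in 33.5% of female neurons and 11.7%, 9.07% and 10.4% of male neurons, and in 2.05%, 1.47%, 0.556% and 0.637% after thinning. The female share was also the highest at equal depth, but its interval (1.10 to 3.49) overlapped those of all 3 male libraries.

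bnb, which was abundant in both classes, was at 613, 374 and 722 CPM in the male neurons and 1520 CPM in the females. CG5644 was at 52.6, 58.0 and 62.2 CPM against 130 CPM, with the males within 1.2-fold of each other. Neither bnb nor CG5644 held with mitochondrial UMIs under 10%, in glutamatergic or GABAergic cells, or in the mean of the 3 transmitter groups. bnb was also lost without scored doublets and in cholinergic cells. CG5644 was also lost with the mean CPM per cell, with the thinned fne and repo, and at equal depth. Yp3, a yolk protein gene made in quantity by the female fat body and ovary, was at 24.8, 20.8 and 24.3 CPM in male neurons and 76.8 CPM in female neurons. In female neurons, 94.6% of the Yp3 UMIs lay in 10 cells, and without the 1% of cells richest in it the log2 ratio of 1.63 became 0.79. Yp3 was mainly glial here, at 1427, 411 and 146 CPM in male glia and 1955 CPM in female glia, a log2 ratio at 1 day of 0.46. Its relatives Yp1 and Yp2 had at most 21 UMIs in the neurons of a 1-day library.

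Some of the largest ratios rested on a few cells. CG10407 was at 11.4, 0.61 and 0 CPM in male neurons and 202 CPM in the females, but 99.9% of its 1225 female UMIs came from 10 cells. Its log2 ratio turned from 4.14 to -0.94 in neurons with the inner photoreceptor rhodopsins Rh3 to Rh6 under 0.5% of UMIs. Rh4, a rhodopsin of R7 photoreceptors, behaved alike, at 157, 30.5 and 665 CPM in males and 1198 CPM in females, and turned from 2.94 to -0.96. Cells with those rhodopsins at 0.5% or more numbered 32, 10 and 13 in the male libraries and 13 in the females. CCHa2, a neuropeptide, was at 0.848, 144, 0 and 31.5 CPM, and did not hold since the 3-day males were higher still. zyd, an ion exchanger of glia, went from 20.1 to 42.4 CPM in neurons and was at 3087 CPM in female glia.

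Genes of sex determination and dosage compensation were compared in level as listed groups. Of 8 sex determination genes compared in neurons, fru alone was past 2-fold, where 1.09% of all genes were higher and 5.66% lower. It did not hold: fru was at 56.2, 72.3 and 41.5 CPM in males and 143 CPM in females, higher by a ratio of 2.55 at 1 day (2.29 to 2.85) and 1.98-fold against the 3-day males. A fru UMI was found in 56.2% of female and 23.9% of 1-day male neurons, and in 9.64% and 2.72% after thinning. The counts were made per gene, so the sex-specific splice forms of fru, Sxl, tra and dsx cannot be seen. Sxl was at 546, 325 and 430 CPM in male and 605 CPM in female neurons. Of 6 dosage compensation genes compared, none was past 2-fold, a count too small to set against those shares of all genes. Among them were mle at 80.2, 37.9 and 45.0 CPM against 57.4 CPM and msl-2, which is translated in males, at 19.5, 12.2 and 12.6 CPM against 15.7 CPM. roX1 and roX2 were not analysed here, and the 23 Y-linked genes had at most 1 UMI in a whole library.

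The study also named apolpp as sex-specific from these libraries, after removing neurons and glia. It gave t as a gene higher in female photoreceptors that was not sex-specific. Neither apolpp nor t held in neurons. apolpp, the lipophorin precursor, was at 85.0 CPM in the 1-day males and 20.9 CPM in the females, but at 4.58 and 17.2 CPM in the older males. The gene t, whose hydrolase frees histamine from its beta-alanine conjugate, was at 19.7, 34.8 and 7.08 CPM in males and 62.6 CPM in females. Among transmitter genes, VGlut, the vesicular glutamate transporter, was at 1508, 511 and 987 CPM in males and 556 CPM in females, between the male libraries. Vmat, for monoamines, was at 18.3, 13.1, 1.01 and 3.30 CPM. Neurons with cholinergic markers only were 43.1%, 47.6% and 46.5% of male and 51.8% of female neurons, those with VGlut only 9.36%, 9.44%, 7.43% and 9.005%, and those with GABAergic markers only 2.09%, 8.15%, 1.27% and 1.26%. Markers of more than 1 transmitter were found in 42.7%, 30.7%, 40.55% and 35.7%. The median UMIs of these cells were 8387, 8606, 6261 and 11790, against 3191, 3315, 2793 and 5491 in the cholinergic cells. The part of depth, doublets or free RNA in these shares was not tested.

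Of 4 clock genes compared in neurons, 2 were past 2-fold lower, where 5.66% of all genes were. These were per and cwo, which were lower in female than in 1-day male neurons, per at 11.3, 9.46 and 5.56 CPM in males and 3.30 CPM in females and cwo at 18.4, 12.8 and 9.61 CPM against 8.903 CPM. Neither held, as the 7-day males were within 2-fold of the females. Of 6 heat shock genes compared, Hsp67Bc was higher, from 3.28 to 14.5 CPM, with 22.9 CPM in the 3-day males. None of 7 early genes, 13 steroid genes, 12 glycolytic genes or 14 vacuolar pump genes was past 2-fold. Of 11 lipid genes, NLaz, a lipocalin, was higher (7.10 to 25.4 CPM) and apolpp lower.

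In glia the largest differences that held were on the lower side, and the beta-alanine genes were among them. b, which encodes Black, was at 671 CPM in the 1-day males, 1606 in the 3-day males, 2812 in the 7-day males and 85.4 in the females. e, which encodes Ebony, was at 723, 815 and 1349 CPM in the males and 129 CPM in the females. Balat, the beta-alanine transporter, was at 142, 280 and 393 CPM against 11.8 CPM. All 3 were lower in females than in every male library, by 7.86-fold (6.73 to 9.20), 5.61-fold (4.92 to 6.40) and 12.1-fold (8.07 to 18.8) at 1 day.

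The cells in which e, b and Balat together made up 0.1% or more of UMIs were 24 of 158 in the 1-day males (15.2%), 11 of 84 in the 3-day males (13.1%), 15 of 87 in the 7-day males (17.2%) and 15 of 157 in the females (9.55%, interval 5.45 to 15.3). At 0.5% or more, the shares were 12.03%, 10.7%, 14.9% and 4.46% (1.81 to 8.97). The same 3 genes chose these cells, so their levels inside the group only describe it: e was at 7518 CPM in the 1-day males and 3423 CPM in the females, and b at 7006 and 2390 CPM. Of the cells at 0.1% or more, 19 of 24 in the 1-day males and 7 of 15 in the females reached 0.5%. The part of this in the levels was not tested. CG8861 and CG2145 did not choose the group, but 234 of 237 and 1779 of 1821 of their UMIs in 1-day male glia lay inside it. Their levels there are therefore not separate from the choice of cells. Inside the group CG8861 was at 1711, 1928 and 1976 CPM in males and 136 CPM in females, on 10 female UMIs, and CG2145 at 13010, 20222 and 20570 CPM against 4360 CPM.

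Over all glia, CG8861 had the largest ratio, at 161, 261 and 376 CPM in males and 5.23 CPM in females, or 30.8-fold (17.3 to 60.5). CG15449, an X-linked gene 1519 bases from Mgstl, was at 243, 187 and 244 CPM against 9.15 CPM, with the males close together. Nepl15, of the neprilysin-like family, was at 156, 83.4 and 279 CPM against 6.10 CPM. Outside the cells with e, b and Balat at 0.1% or more, CG15449 was still 16.4-fold lower in females than in 1-day males, at 3.15 against 51.7 CPM, and Nepl15 4.28-fold, at 6.30 against 27.0 CPM, though the older males had only 5.04 and 7.51 CPM of Nepl15. CG43795 and CG2145 followed, at 226 and 1238 CPM in the 1-day males and 15.3 and 149 CPM in the females. CG8861 and CG43795 are also neuronal genes here, CG8861 at 496 CPM in the 1-day male neurons.

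Other genes of the list were lower in females as well. dally, a glypican, was at 148, 236 and 411 CPM in male glia and 17.9 CPM in female glia, and Ca-alpha1T, a T-type calcium channel subunit, at 59.8, 79.1 and 122 CPM against 5.23 CPM. GluClalpha, a glutamate-gated chloride channel, was at 288, 184 and 376 CPM against 58.8 CPM, and side-VIII, an adhesion protein of the Side family, at 91.1, 80.5 and 93.6 CPM against 11.8 CPM. CAH1, a carbonic anhydrase, was at 270, 1038 and 1125 CPM against 61.0 CPM. Over all glia, no male library overlapped the female level in any of the 5 genes. Without the cells with e, b and Balat, none of the 5 held. There, dally was at 13.5, 26.9 and 32.6 CPM in males and 11.25 CPM in females. GluClalpha was at 74.2, 21.8 and 40.1 CPM against 36.5 CPM, and CAH1 at 46.5, 63.8 and 22.5 CPM against 35.1 CPM. side-VIII was at 11.2, 5.04 and 7.51 CPM against 7.20 CPM. Ca-alpha1T had 3, 1 and 0 UMIs in males and 1 in females.

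Without the cells with e, b and Balat at 0.1% or more, 8 of the 55 genes still held as lower on 100 or more UMIs, 30 of the 55 having that many. GstD2, a glutathione transferase, was among those 8: over all glia it was at 342, 269 and 468 CPM in males and 104 CPM in females, and without these cells at 375, 304 and 576 CPM against 106 CPM. With mitochondrial UMIs under 10%, 15 genes held as lower in glia, 7 of them among the 55. CG8861 and dally then had log2 ratios of 0.12 and -0.07. In 1-day males 28 of the 55 genes were highest in glia, 20 in neurons, 4 in ninaE cells and 3 in Pdh cells.

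**Figure D4:**
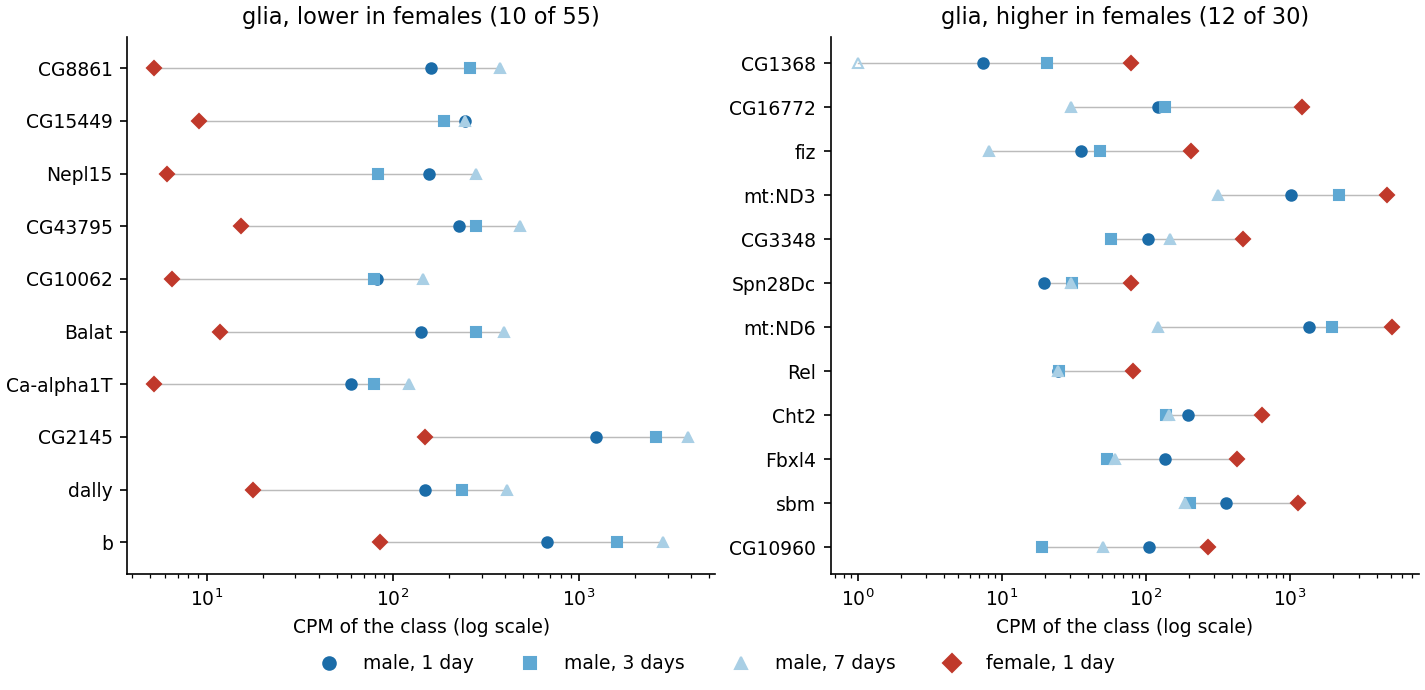
CPM in glia (horizontal, log scale) of the 10 genes lowest and 12 genes highest in females among those 2-fold from all 3 male libraries, ordered by the ratio at 1 day, with 1 symbol per library; the open triangle is a level of 0 in the 7-day males, drawn at the left edge. The female diamond is at the left end of every line on the left and at the right end of every line on the right.

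The genes that held as higher in female glia were mostly glial, 27 of 30 being highest in glia among the 4 classes of the female library. CG16772 had the largest ratio on more than 200 UMIs, at 122, 136 and 30.5 CPM in males and 1209 CPM in females, 9.88-fold at 1 day (8.49 to 11.6). It was found in 29.9% of female glia and 12.03%, 15.5% and 9.20% of male glia, and in 13.4%, 2.53%, 2.38% and 0% after thinning. fiz was at 35.3, 48.3 and 8.14 CPM in male and 207 CPM in female glia and had no UMI in any neuron. CG1368 was at 7.48, 20.5 and 0 CPM in the 1-, 3- and 7-day males and 78.9 CPM in the females. It rested on few cells, since 83.4% of its female UMIs were in 10 cells, and after thinning 2 female and 1 1-day male glial cells had a UMI.

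Transport and enzyme genes were part of this group. sbm, an amino acid transporter, was at 362, 203 and 187 CPM in male glia and 1142 CPM in female glia, 3.16-fold at 1 day (2.87 to 3.47), and found in 76.4% of female and 66.5%, 48.8% and 51.7% of male glia. Cht2, a chitinase, was at 196, 139 and 144 CPM against 644 CPM, and Inos, which makes inositol phosphate, at 387, 401 and 315 CPM against 826 CPM. Pfrx, which sets the level of fructose 2,6-bisphosphate, was at 80.9, 74.7 and 42.7 CPM against 167 CPM, and bmm, the main triglyceride lipase of the fly, at 29.2, 20.5 and 26.4 CPM against 59.3 CPM. In sbm, Cht2, Inos, Pfrx and bmm all 3 male libraries lay below the females. Neither Inos nor bmm held with the mean CPM per cell or with repo at 2 or more. Inos also failed to hold with ninaE and Pdh under 5%, with the study's limits, without the cells with e, b and Balat and without the 1% richest cells. bmm was also lost with a filter of 200 UMIs, with mitochondrial UMIs under 10%, without scored doublets and with the thinned fne and repo. Pfrx was lost without scored doublets and without the cells with e, b and Balat.

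Of the 23 immune genes listed, 2 were compared in glia, and 1, Rel, held. Rel, the NF-kappaB factor of the Imd pathway, was at 24.5, 24.9 and 24.4 CPM in the male glia and 81.0 CPM in the females, 3.31-fold (2.31 to 4.87), with the 3 males nearly equal. Of its 186 female UMIs, 66.1% were in 10 cells, after thinning Rel was found in 0% of female glia and 0.633% of 1-day male glia, and it did not hold with repo at 2 or more UMIs. Outside that list, and named after their values were seen, cact, the inhibitor of the Toll pathway's factors, was at 82.2, 42.5 and 52.9 CPM against 167 CPM, and spz, the ligand of Toll, at 60.5, 48.3 and 65.1 CPM against 139 CPM. Neither cact nor spz held with the mean CPM per cell, with the study's limits, without the cells with e, b and Balat or without the 1% richest cells, and cact held neither with mitochondrial UMIs under 10% nor with repo at 2 or more. ImpL2, a secreted insulin-binding protein, was at 57.8, 22.0 and 40.7 CPM in male and 128 CPM in female glia, and the serpin Spn28Dc at 19.7, 30.7 and 30.5 CPM against 78.4 CPM.

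The glial marker genes differed in both directions. Tret1-1, a trehalose transporter of perineurial glia, was at 73.4, 199 and 112 CPM in male and 277 CPM in female glia, so it was 3.77-fold higher than at the same age and did not hold. Its cells were 42.7% of female and 17.7%, 21.4% and 16.1% of male glia, and 6.37%, 3.17%, 3.57% and 2.30% after thinning. Gli, a septate junction protein of barrier glia, was higher (46.2, 45.4 and 57.0 CPM against 95.9 CPM) and nrv2, a sodium pump subunit, lower (1750, 1540 and 1215 CPM against 737 CPM). Of 10 lipid genes compared in glia, bmm held, Lsd-2, a lipid droplet protein, and LpR1, a lipophorin receptor, were higher at 1 day (log2 1.12 and 1.01) and apolpp was lower (-1.07). Of 2 dosage compensation genes compared in glia, JIL-1, a histone kinase, was lower by a log2 ratio of -1.01 and Clamp was at -0.06, where 5.55% of all genes were past 2-fold lower.

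Several transcripts of the mitochondrial genome were higher in females in both classes. Of 13 mitochondrial protein genes, 6 were past 2-fold in neurons and 6 in glia, none lower, where 1.09% and 2.59% of all genes were higher. In each class 2 held, where 0.136% and 0.997% of all genes held as higher, and the median log2 ratios were 0.73 and 0.93. The females also had a higher mitochondrial share of UMIs over all barcodes (median 9.43% against 6.86% in the 1-day males) and in neurons (9.63% against 7.95%), but nearly the same in glia (9.56% against 9.48%); its part in these levels was not tested. mt:ND6, a subunit of complex I, was at 339, 784 and 52.1 CPM in male and 1876 CPM in female neurons, and at 1357, 1959 and 122 CPM in male and 5123 CPM in female glia. mt:ND3 in glia was at 1015, 2191, 317 and 4761 CPM. The same genes were low in the 7-day males, so the spread between male libraries was wide, and mt:ND6 was also higher in female than 1-day male ninaE cells, 2116 against 396 CPM. mt:CoI, by contrast, was at 19255, 19662 and 22716 CPM in male and 20335 CPM in female neurons. Of 59 nuclear genes of oxidative phosphorylation in neurons, 2 were past 2-fold higher, 55 lay above a log2 ratio of 0 and the median was 0.19. Of 58 in glia, 1 was past 2-fold higher, 50 lay below 0 and the median was -0.25. Over all genes, 1.09% were higher in neurons and 2.59% in glia.

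Over all its genes the X lay close to the autosomes. The median log2 ratio of 1029 X-linked genes in neurons was -0.074, against -0.024 for chromosomes 2 and 3, and in glia it was -0.039 over 526 genes against -0.080. The difference of X and autosomes was -0.050 in neurons and 0.040 in glia. In neurons it lay between -0.077 and 0.043 over the alternatives run, being above 0 in GABAergic and in glutamatergic cells. The small chromosome 4 stood lowest: the median of 72 genes in neurons was -0.462 and of 47 genes in glia -0.706. It was also below 0 in the older males against the 1-day males, at -0.434 and -0.247 in neurons and -0.235 and -0.336 in glia, so the 1-day males were the high library.

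**Figure D5:**
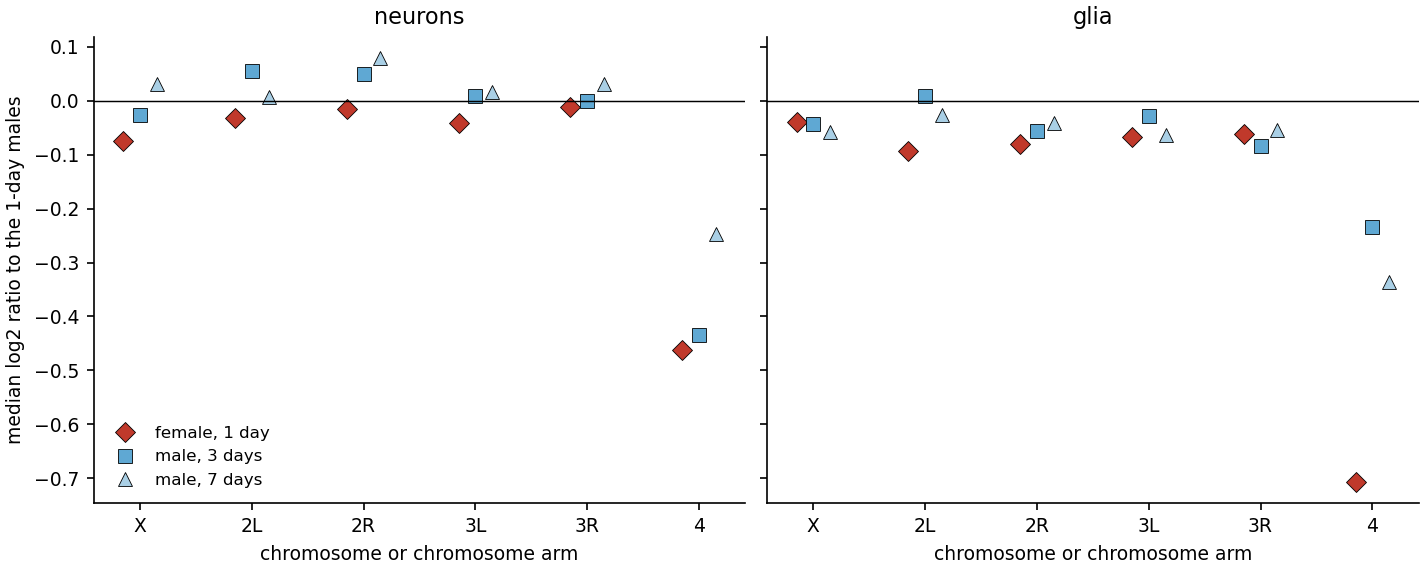
Median log2 ratio to the 1-day males of the genes of each chromosome or arm (vertical) in neurons and glia, for the 1-day females and the 3- and 7-day males. The X and the large autosomal arms lie within 0.1 of 0 in all 3 libraries, and chromosome 4 lies lower in all of them, at -0.462 and -0.706 in the females.

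In each direction 1 gene held in both neurons and glia. Mgstl was lower in females in both, 3.03% of the neuronal and 1.82% of the glial list, at 335, 341 and 301 CPM in male glia and 123 CPM in female glia. mt:ND6 was the one gene higher in both, 12.5% and 3.33% of the lists. Of the genes that held in neurons, 11 of the 33 lower and 5 of the 8 higher had enough UMIs to be compared in glia, where 1.83% and 0.997% of all genes held as lower and higher. Mgstl did not hold in glia with the study's limits or without the cells with e, b and Balat. Without those cells it was at 237.5, 196.5 and 157.8 CPM in male glia and 120.2 CPM in female glia. Genes that held together also lay side by side in places: Fbxl4 and CG1434, 64 bases apart on the X, were both higher in female glia, at 428 and 41.4 CPM against 135 and 20.4 CPM in the 1-day males, while CG11077 and CG11076, 349 bases apart on chromosome 4, went in opposite directions, CG11077 from 94.5 to 42.3 CPM and CG11076 from 24.5 to 61.9 CPM.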

How the data were processed

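The matrices hold UMI counts per gene and barcode, deposited by the authors as whole numbers before SoupX correction and before their own removal of cells; the submitters' processing notes name Cell Ranger 6.0.1 and dm6. Libraries were grouped by the age and sex in their labels. Cells were gated as described, UMI counts were summed per library and class, and CPM was taken over all UMIs of the class. Ratios carry exact conditional binomial intervals and shares Clopper-Pearson intervals at 95%, for counting error only; no test was run, as each group held 1 library. Library totals were 98373676, 44430651 and 17654226 UMIs for the 1-, 3- and 7-day males and 74438691 for the 1-day females, over 13964 genes. Genes were named if among the 8 largest ratios of a class and direction, the 10 that held furthest from the nearest male, or in the fixed lists with 100 or more UMIs; others that held were named after their values were seen. Members and lists were chosen with earlier results of these data known. Gene positions came from the BDGP6 annotation of Ensembl release 115, in which 46 listed genes were not placed. Alternatives covered scaling, filters, folds, gates, doublet scores, free RNA and transmitter groups. Python 3.11.15, numpy 2.4.6, scipy 1.17.1, pandas 2.3.3, scanpy 1.11.5, matplotlib 3.10.9, R 4.3.3, edgeR 4.0.16 (TMM factors) and DESeq2 1.42.0 (size factors) were used.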

Additional observations from a re-analysis of the deposited data

Results flagged for a closer look

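In 3 genes the 1-day females were past 2-fold from the 1-day males in opposite directions in neurons and glia; the difference between the classes was not tested, and none of the 3 held against every male library. CG3902 had a log2 ratio of females over males of -3.09 in neurons and 1.08 in glia. Obp44a, an odorant-binding protein gene, had 1.12 in neurons and -1.10 in glia. Rh4, a rhodopsin of R7 photoreceptors, had 2.94 in neurons and -2.31 in glia.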

How the results depend on the processing

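With 1 library per group no replicate could be left out, and no paired analysis was possible because each group held 1 library. Of the values of named neuronal genes under the alternatives, 556 stayed within their counting interval, 134 moved and 11 changed direction, in 6 genes; in glia these were 413, 84 and 1. Thinning to the smallest library, thinning fne and repo, leaving out cells with Rh3 to Rh6 or with e, b and Balat, and leaving out the 1% richest cells or a male library were chosen after seeing the data. The cause of each change was not tested. Neurons had 396 genes past 2-fold, but 60 in GABAergic and 110 in glutamatergic cells, 656 in the mean of 3 transmitter groups, 1055 with a filter of 10 UMIs, 1143 and 124 at folds of 1.5 and 3, and 213 at equal depth. Of neuronal genes 41 held, but 27 in GABAergic and 9 in glutamatergic cells, 142 in the mean of 3 groups, 147, 74 and 22 with filters of 10, 50 and 200 UMIs, 154 and 15 at folds of 1.5 and 3, 68 with the mean CPM per cell, 192 without the 1-day males, 126 without the 7-day males and 16 at equal depth. Glia had 245 past 2-fold, but 955, 404 and 143 with those filters, 695 and 71 at those folds and 95 at equal depth; 85 held, but 250, 132 and 56, 238 and 38, 46 with mitochondrial UMIs under 10%, 200 without the 1-day males, 33 at equal depth and 38 without the cells with e, b and Balat. The share past 2-fold in 3-day male glia (9.53%) became 15.4% with a filter of 10 UMIs, 29% and 2.08% at folds of 1.5 and 3, 14.7% with the study's limits and 16.2% with the thinned gate; in 7-day male glia (13.1%) it became 26.1% with the stricter gate, 34.5% and 3.67% at those folds and 20.7% with the thinned gate. In neurons the 3-day share (17%) became 46.8% and 3.3% at those folds and 11.1% with the study's limits, and the 7-day share (14.1%) 22.3% in GABAergic cells, 40% and 3.89% at those folds and 24.3% in the mean of 3 groups. The log2 ratio of the glial share was 1.01 and became 0.41 with the thinned gate, and that of the neuronal share was -0.16 and became -0.007 with fne at least 3. Reversed log2 ratios in neurons were those of CG10407 (-0.94 without Rh3 to Rh6 cells, -1.06 without the 1% richest), CG32368 (-1.80 in cholinergic cells, -0.81 in the mean of 3 groups), Hsp67Bc (-0.55 in that mean), Rh4 (-2.02 GABAergic, -1.55 glutamatergic, -0.96 without Rh3 to Rh6 cells, -0.92 without the 1% richest), and Yp3 and zyd in glutamatergic cells (-0.99 and -0.51), and in glia CG8861 (0.12 with mitochondrial UMIs under 10%).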
